A study of Triticum aestivum and Triticum turgidum subsp. durum with 27 samples.

Results

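Sugar and starch metabolism in the wheat glume was represented by 31 probe sets for 18 genes, out of 61179 wheat probe sets on the array. They are the probe sets whose best Arabidopsis match carries the words sucrose, invertase, fructofuranosidase, starch, amylase, trehalose, fructose or glucose- in the study's list of drought-responsive probe sets, transporters left out. That list was available for 1420 probe sets, 1067 of them with a description, and its remainder was not analysed here. The same search for galactinol, raffinose and hexokinase found 0 probe sets. All 31 passed the filter on low values, which asked for all 3 arrays of at least 1 group above the array median. Of these 25 passed in all 9 groups and 2 in a single group, vacuolar invertase BFRUCT3 in Creso SS and the epimerase/dehydratase in Creso CTRL, so that both had to differ and are given no test. The study put a probe set on its list when it differed between CTRL, MS and SS within a genotype on these same arrays. The drought differences of the members are therefore given as a description with no test. Tests are kept for genotype differences averaged over treatments and for annotated sugar genes that are not members.

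Glumes of 9 groups, with 3 biological replicates each, were profiled on 27 wheat arrays made by Affymetrix. Creso is a durum wheat cultivar with the A and B genomes, CS (Chinese Spring) is a bread wheat cultivar with the A, B and D genomes, and CS_5AL-10 is a single terminal deletion line of CS that has lost the distal end of the long arm of chromosome 5A. Control plants (CTRL) were kept at 28% soil water, whereas the mild (MS) and severe (SS) stress plants went without watering from 3 days post anthesis until the soil held 18% and 12.5% water, with flag leaf water potentials of -2.1 to -2.6 MPa and -3.3 to -3.9 MPa. According to the labels, glumes were sampled 7 days post anthesis in Creso and 10 days post anthesis in both bread wheats, and the methods give somewhat later days. The paper reports a more negative leaf water potential for Creso than for either bread wheat in all treatments. Its MS and SS values were -2.6 and -3.9 MPa, the dry ends of the ranges above. Genome composition, cultivar, sampling day and leaf water status thus cannot be told apart in any comparison of Creso with a bread wheat. Since a probe set can bind all homoeologous copies of a gene, more copies and more RNA per copy cannot be told apart either.

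Sucrose is the transport form of carbon in cereals. It is made in the cytosol by fructose-1,6-bisphosphatase and sucrose-phosphate synthase, and it is split in sink tissues either by sucrose synthase, which yields UDP-glucose, or by invertases of the cell wall, vacuole and cytosol, which yield hexoses. Wheat stores surplus carbon as starch and, in stems, leaf sheaths and floral parts, as fructans, which fructan exohydrolases break down. Glumes are green bracts around the floret that fix carbon beside the filling grain.

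All levels below are log2(intensity + 16) after each array was centred on a common median of 6.57, and differences are on the same log2 scale. Photosystem II genes, which mark green tissue, were high on all arrays, with a mean over 3 probe sets of 14.59 to 15.27 for Creso, 13.72 to 14.78 for CS and 13.43 to 14.52 for CS_5AL-10. Pollen coat genes of the raftin type averaged 4.75 to 5.98, below the array median. Transcripts of grain storage proteins were not absent. Their mean over 17 gliadin, glutenin and avenin-like probe sets was 11.40 to 11.82 in CS CTRL and 8.95 to 11.16 in CS_5AL-10 CTRL, but 5.54 to 6.56 on 8 of the 9 Creso arrays and 9.50 on MS replicate 1. Within the stressed bread wheat groups it ranged from 5.94 to 11.59 among replicates, so those values are set beside each starch gene. Most of these 17 probe sets are annotated to D chromosomes, which Creso lacks. The grain means of Creso and bread wheat are therefore not directly comparable. Low Creso values were not confined to those probe sets. Ta.27777.1.S2_at, annotated to 4A, read 4.53, 4.37 and 4.53 in Creso CTRL and 11.14, 11.39 and 11.43 in CS CTRL. Ta.27777.1.S1_at, also annotated to 4A, was high in both. On Creso MS replicate 1 Ta.905.2.S1_at, annotated to 7D, read 12.27. The part of the missing D genome in the grain means was not tested.

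Cell wall invertase with its relative and the member probe sets of fructose-1,6-bisphosphatase were lower in both bread wheats than in Creso. The brightest fructose-1,6-bisphosphatase probe set fell short of 2-fold in both, and a non-member of its cluster lay on the other side. Sucrose-phosphate synthase B and trehalose-6-phosphate phosphatase were higher in CS_5AL-10 than in Creso. Averaged over CTRL, MS and SS, 8 of 31 members were lower in CS and 0 were higher than in Creso by the criterion of an adjusted p under 0.05 in limma and a difference of at least 2-fold. This is 25.8% of the members beside 28% of all tested probe sets. The 8 calls stand for 5 genes in 4 transcript clusters, and those of BFRUCT3 and the epimerase/dehydratase are among them. In CS_5AL-10 against Creso 10 were lower and 2 higher, or 38.7% beside 31% of all, and the 10 stand for 5 genes in 4 clusters, again with BFRUCT3. The share was near the background in CS, and with so few genes nothing is read from either share. Over the array CS was higher for 14.9% and lower for 13.1% of the probe sets, and CS_5AL-10 for 15.1% and 15.9%. The median member differed by -0.65 in CS and -0.50 in CS_5AL-10, while the median over all tested probe sets was -0.28 and -0.26. Those overall shifts came down to -0.05 and 0.01 without centring, and the calls then stood at 1 higher and 7 lower for CS, with 5 and 9 for CS_5AL-10. With quantile normalization they were 1 higher and 7 lower, and 3 higher and 9 lower.

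**Figure D1:**
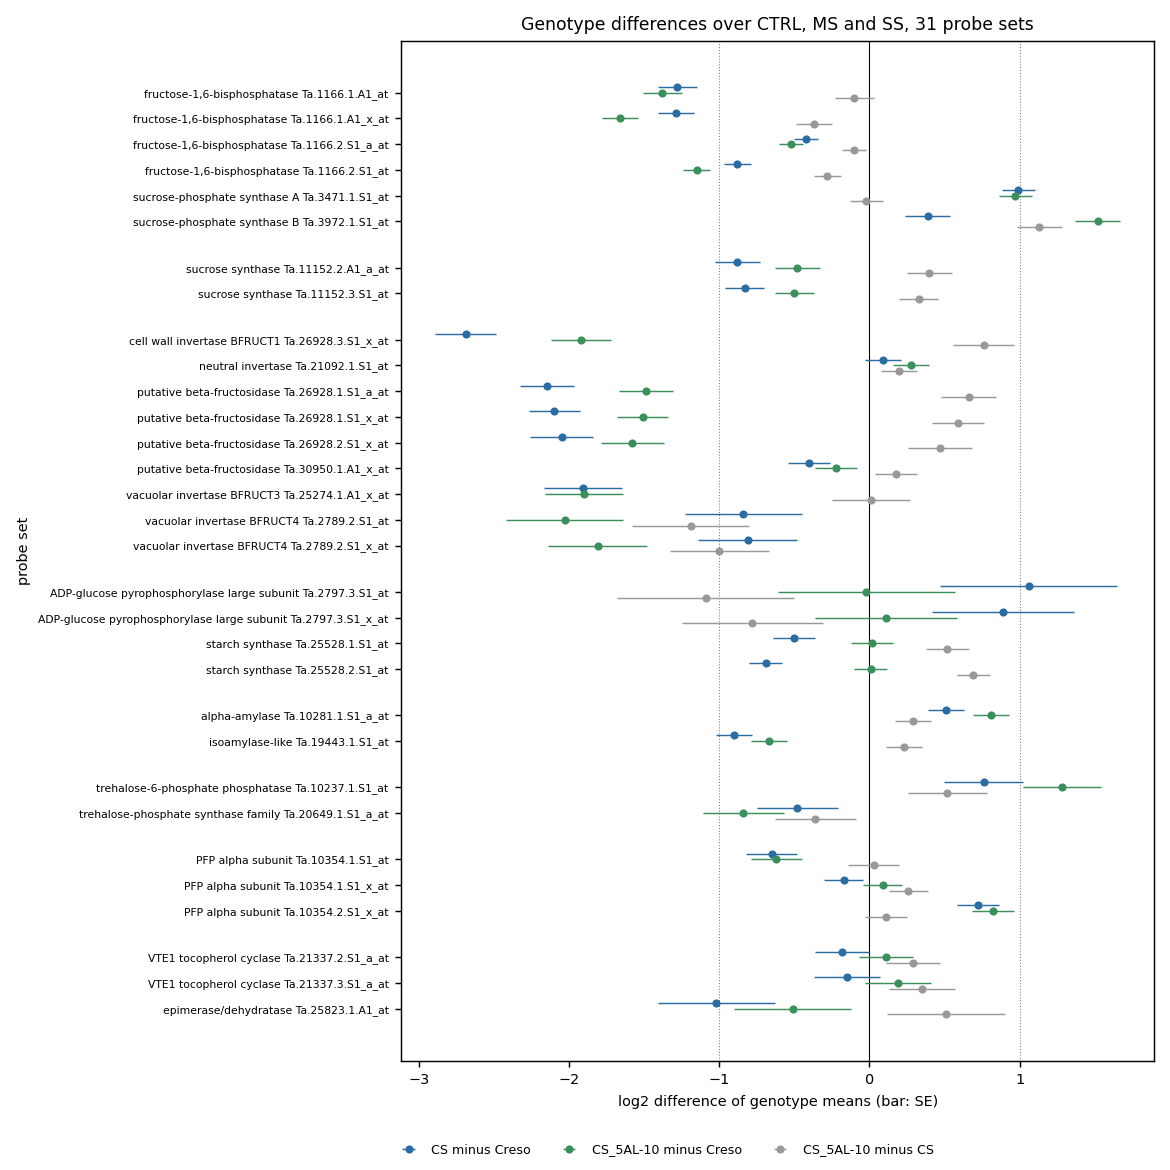
Log2 difference of genotype means over CTRL, MS and SS for each of the 31 probe sets, grouped by pathway, with the SE of the fit as bars and dotted lines at 2-fold. The probe sets of cluster Ta.26928 and of vacuolar invertase BFRUCT3 lie beyond the 2-fold line to the left in both bread wheats, whereas sucrose-phosphate synthase B lies to the right only in CS_5AL-10. BFRUCT3 passed the filter through Creso SS alone and is given no test.

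The CTRL arrays entered the contrasts behind the study's list, so a low or high CTRL level could itself have placed a probe set there, and the CTRL differences of the members are a description. By the same criterion CS exceeded Creso for 3 members and lay below it for 6 in CTRL plants, or 29.0% beside 30.9% of all probe sets (15.4% higher, 15.5% lower). In CS_5AL-10 the numbers were 5 higher and 10 lower, or 48.4% beside 31.1% (16.3% higher, 14.8% lower). CS_5AL-10 differed from CS for 3 members averaged over treatments (1 higher, 2 lower, 9.7% beside 3.31%, of which 1.28% higher and 2.03% lower) and for 1, higher, in CTRL plants (3.2% beside 2.05%, of which 0.848% higher and 1.2% lower). The 3 averaged calls against CS stand for 2 genes, sucrose-phosphate synthase B and BFRUCT4.

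**Figure D2:**
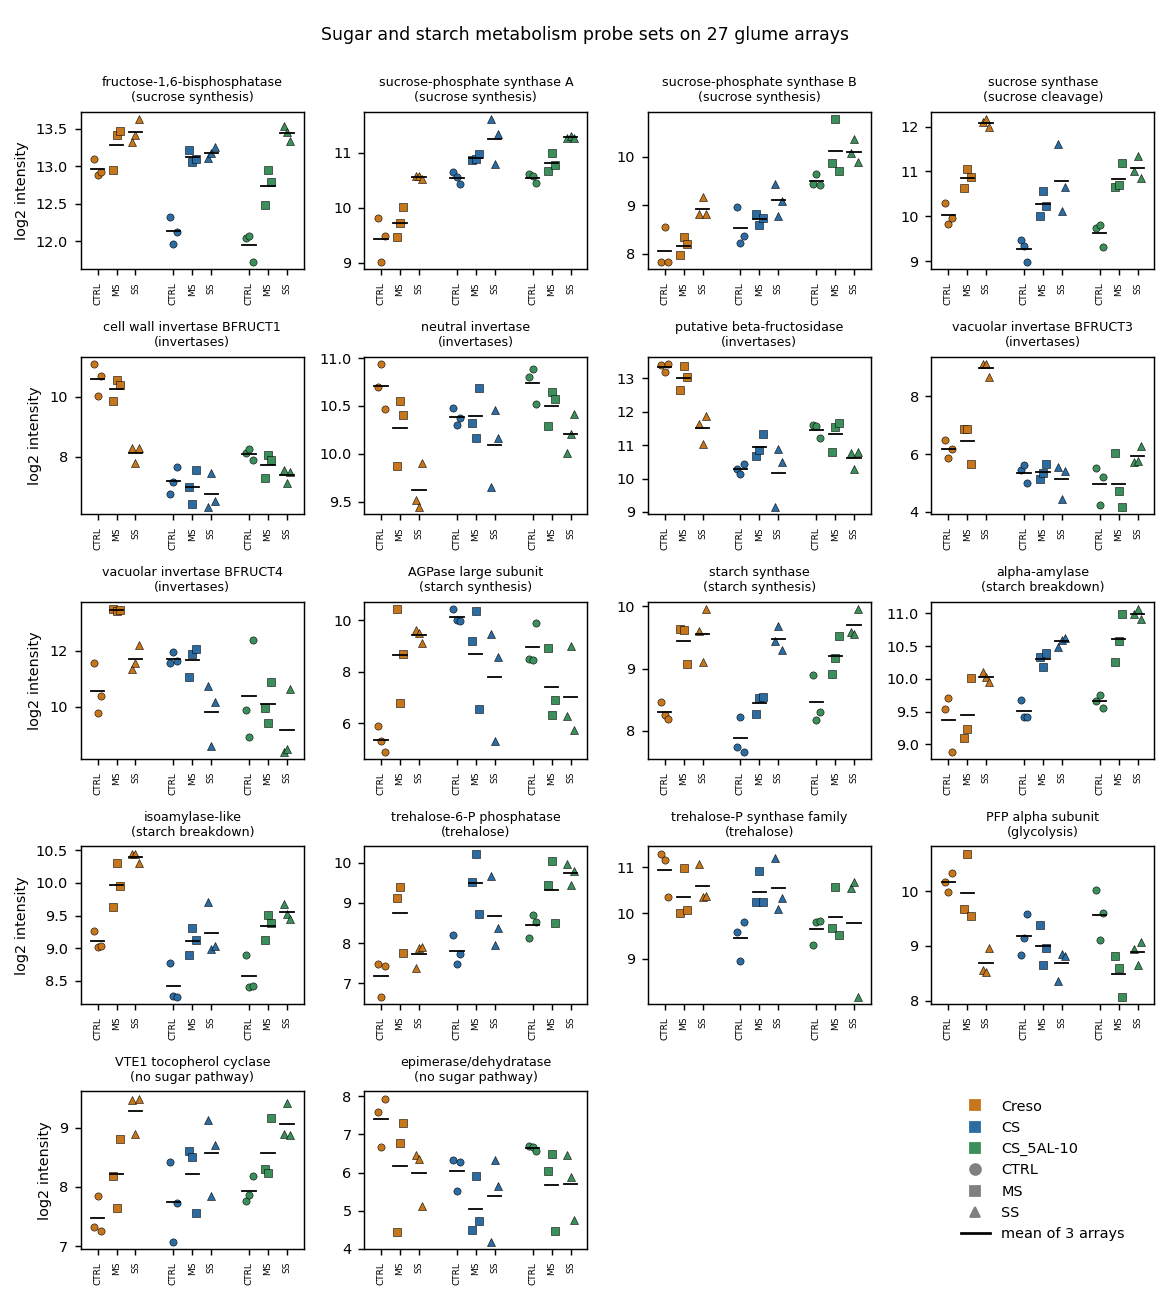
Log2 intensity of 1 probe set for each of the 18 genes (that with the highest mean of the gene) on all 27 arrays, with treatments on the x axis within each genotype (colour) and the mean of 3 arrays as a line. Cell wall invertase and its relative are lower at SS than in CTRL in Creso, whereas the ADP-glucose pyrophosphorylase large subunit is higher there at SS and lower at SS in CS.

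The invertases and their relatives were the pathway with the widest genotype difference averaged over treatments, while in CTRL plants the starch synthesis members differed by more. Of 9 probe sets, 5 were lower in CS than in Creso and 7 in CS_5AL-10, and 0 were higher. Over all tested probe sets 13.1% and 15.9% were lower. Both counts include BFRUCT3, which is given no test. The others belong to cluster Ta.26928 in CS, and to that cluster and BFRUCT4 in CS_5AL-10, so nothing is read from the counts. The described probe set of the putative beta-fructosidase (Ta.26928.1.S1_a_at), which shares its transcript cluster with cell wall invertase, was far above the array median in all groups. In Creso the CTRL arrays read 13.41, 13.18 and 13.44, the MS arrays 12.65, 13.36 and 13.05 and the SS arrays 11.63, 11.05 and 11.89. In CS the CTRL arrays read 10.30, 10.15 and 10.45, the MS arrays 10.69, 10.86 and 11.33 and the SS arrays 9.14, 10.89 and 10.51. In CS_5AL-10 the CTRL arrays read 11.60, 11.57 and 11.22, the MS arrays 10.80, 11.54 and 11.66 and the SS arrays 10.78, 10.30 and 10.81. Each Creso array of CTRL and MS lay above every bread wheat array. Averaged over treatments CS was 4.43-fold lower than Creso, -2.15 (SE 0.18, adjusted p = 3.25e-10), and CS_5AL-10 2.81-fold lower, -1.49 (SE 0.18, adjusted p = 1.41e-07). In CTRL plants the differences were -3.04 (SE 0.32) and -1.88 (SE 0.32). The other probe sets of this gene in the same transcript cluster, Ta.26928.1.S1_x_at and Ta.26928.2.S1_x_at, gave -2.10 and -2.05 for CS and -1.51 and -1.58 for CS_5AL-10, all called. Probe sets of this cluster can bind the same transcripts and are not separate evidence.

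Cell wall invertase BFRUCT1 (Ta.26928.3.S1_x_at), which splits sucrose outside the cell where it is unloaded, had the largest averaged genotype difference of the 31 members, although its probe set belongs to the cluster just described and may bind those transcripts too. The Creso arrays gave 11.10, 10.02 and 10.68 under CTRL, 9.85, 10.56 and 10.38 under MS and 8.29, 7.79 and 8.30 under SS. The CS arrays gave 6.75, 7.14 and 7.66 under CTRL, 7.0, 6.41 and 7.55 under MS and 6.31, 7.46 and 6.53 under SS. The CS_5AL-10 arrays gave 8.12, 8.25 and 7.89 under CTRL, 7.28, 8.04 and 7.89 under MS and 7.56, 7.12 and 7.49 under SS. Its SS values in Creso overlapped the CTRL values of CS_5AL-10. Over treatments CS was 6.44-fold below Creso, -2.69 (SE 0.20, adjusted p = 1.58e-11), and CS_5AL-10 was 3.79-fold below, -1.92 (SE 0.20, adjusted p = 5.32e-09). Between the bread wheats CS_5AL-10 was higher by 0.76 (SE 0.20, adjusted p = 0.00924), under the 2-fold limit. As a description of drought, SS minus CTRL came to -2.47 (Creso), -0.41 (CS) and -0.70 (CS_5AL-10), each with an SE of 0.34. For the putative beta-fructosidase SS minus CTRL came to -1.82 (Creso), -0.12 (CS) and -0.83 (CS_5AL-10), each with an SE of 0.32. The bread wheats started at lower CTRL levels and showed smaller differences, and whether the drought difference itself differed between genotypes was not tested, since the study chose the members on it.

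The vacuolar invertases, which release hexoses from stored sucrose, went other ways. BFRUCT3 (Ta.25274.1.A1_x_at) was near or below the array median in nearly all groups. For Creso the values were 6.47, 5.86 and 6.18 (CTRL), 6.86, 6.86 and 5.66 (MS) and 9.12, 9.11 and 8.65 (SS). For CS the values were 5.45, 5.62 and 4.99 (CTRL), 5.14, 5.35 and 5.66 (MS) and 5.55, 4.43 and 5.41 (SS). For CS_5AL-10 the values were 5.51, 4.23 and 5.19 (CTRL), 6.02, 4.73 and 4.16 (MS) and 5.74, 5.77 and 6.29 (SS). Only the 3 Creso SS arrays stood clear of the rest. The genotype means over treatments were lower in CS, at -1.91 (SE 0.26) and at -1.90 (SE 0.26) in CS_5AL-10. Both averages rest in large part on Creso SS, the only group through which this probe set passed the filter, and in CTRL plants the differences were -0.82 (SE 0.46) and -1.19 (SE 0.46). All bread wheat arrays lay below the median, where a fold difference on this scale is understated.

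BFRUCT4 (Ta.2789.2.S1_at), the other vacuolar invertase, was highest at mild stress in Creso. Creso read 11.55, 9.79 and 10.38 in CTRL, 13.49, 13.41 and 13.46 at MS and 11.33, 11.56 and 12.18 at SS. CS read 11.55, 11.95 and 11.63 in CTRL, 11.05, 11.86 and 12.04 at MS and 10.74, 8.59 and 10.15 at SS. CS_5AL-10 read 9.89, 8.91 and 12.36 in CTRL, 9.94, 9.41 and 10.89 at MS and 8.38, 8.49 and 10.64 at SS. The 3 Creso MS arrays lay close together and exceeded all other arrays, whereas CTRL replicate 3 of CS_5AL-10 stood far above its 2 partners. MS minus CTRL was 2.88 (SE 0.68) for Creso, -0.06 (SE 0.68) for CS and -0.31 (SE 0.68) for CS_5AL-10, and SS minus CTRL was 1.12, -1.88 and -1.22. Averaged over treatments CS_5AL-10 was lower than Creso, at -2.03 (SE 0.39, adjusted p = 7e-05) and lower than CS, at -1.19 (SE 0.39, adjusted p = 0.0425), while CS against Creso was -0.84 (SE 0.39, adjusted p = 0.0599). The second probe set of the gene gave -1.81, -1.0 and -0.81. The call against CS was lost without 14 of the 27 arrays taken out in turn (differences of -1.21 to -0.94 in those fits), and with the MS arrays left out (-0.99). In CS_5AL-10 CTRL the replicate with the highest BFRUCT4 value also had the highest grain transcript mean, 11.16 beside 8.95 and 10.44. In CS MS it was the replicate without them that had the highest value, 12.04 at a grain mean of 6.01. The part of grain transcripts in this value was not tested.

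Neutral invertase (Ta.21092.1.S1_at), the cytosolic form, differed little between genotypes. Its means were 10.70 ± 0.24 in CTRL, 10.27 ± 0.36 in MS and 9.62 ± 0.24 in SS (SD, n = 3) for Creso, 10.38 ± 0.09 in CTRL, 10.39 ± 0.27 in MS and 10.09 ± 0.41 in SS for CS and 10.74 ± 0.19 in CTRL, 10.50 ± 0.19 in MS and 10.21 ± 0.20 in SS for CS_5AL-10. The CTRL and SS values did not overlap in Creso and CS_5AL-10 and did in CS. Its genotype differences were 0.09 (SE 0.12, adjusted p = 0.527) for CS and 0.28 (SE 0.12, adjusted p = 0.0409) for CS_5AL-10 against Creso, the second past the adjusted p and well under 2-fold.

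The ninth probe set of this group, Ta.30950.1.A1_x_at, is described by its Arabidopsis match as a beta-fructosidase, but the platform annotation names it 6-FEH, a fructan 6-exohydrolase. It went the opposite way to the cell wall invertases under drought. In Creso the CTRL arrays read 8.58, 8.08 and 8.78, the MS arrays 9.48, 9.46 and 10.26 and the SS arrays 10.37, 10.25 and 10.55. In CS the CTRL arrays read 8.46, 8.60 and 8.04, the MS arrays 8.82, 9.41 and 9.26 and the SS arrays 10.23, 9.48 and 9.94. In CS_5AL-10 the CTRL arrays read 8.28, 8.19 and 8.85, the MS arrays 9.61, 9.34 and 9.66 and the SS arrays 9.90, 9.80 and 10.19. All SS arrays lay above all CTRL arrays in each genotype. SS minus CTRL came to 1.91 (Creso), 1.52 (CS) and 1.53 (CS_5AL-10), each with an SE of 0.25. Genotypes differed little, at -0.40 (SE 0.14, adjusted p = 0.0185) for CS and -0.22 (SE 0.14, adjusted p = 0.179) for CS_5AL-10 against Creso.

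Another 10 probe sets whose platform annotation names a sugar or starch enzyme were not members, and 7 of them passed the filter. They were picked by annotation, and their drought differences were tested. Whether any of them stands on the study's list, of which only a part was available, was not checked. For one that does, the test would repeat the study's own choice. At SS against CTRL 1 of 7 was called higher in Creso (beside 7.32% of all probe sets), 1 in CS (5.87%) and 2 in CS_5AL-10 (5.69%), and all of these calls were 6-FEH. The member Ta.30950.1.A1_x_at carries the same 6-FEH name, and the study chose it on these contrasts. The called probe sets may bind its transcripts, so their tests are not free of that choice. The probe set called in all genotypes was Ta.9641.1.A1_a_at. The Creso arrays gave 8.93, 8.94 and 9.50 under CTRL, 10.63, 11.20 and 10.68 under MS and 11.45, 11.35 and 11.52 under SS. The CS arrays gave 7.21, 7.97 and 7.97 under CTRL, 7.49, 8.74 and 8.34 under MS and 9.12, 8.55 and 8.85 under SS. The CS_5AL-10 arrays gave 7.74, 7.74 and 8.06 under CTRL, 9.07, 8.75 and 9.29 under MS and 9.38, 9.41 and 9.60 under SS. As with the member, no SS array reached down to the CTRL arrays. It rose by 2.32 (SE 0.27, adjusted p = 3.25e-06) in Creso, 4.99-fold, by 1.13 (SE 0.27, adjusted p = 0.00714) in CS, 2.18-fold, and by 1.62 (SE 0.27, adjusted p = 0.000238) in CS_5AL-10, 3.07-fold. The CS call ended without CTRL replicate 1 (0.87) or SS replicate 1 (0.99). The gene had already risen at MS by 1.71 (SE 0.27, adjusted p = 0.00205) in Creso and 1.19 (SE 0.27, adjusted p = 0.0115) in CS_5AL-10, with 0.47 (SE 0.27, adjusted p = 0.333) in CS. These MS responses were not shown to differ between genotypes, with -1.24 for CS minus Creso (adjusted p = 0.104), -0.52 for CS_5AL-10 minus Creso (adjusted p = 0.529) and 0.72 for CS_5AL-10 minus CS (adjusted p = 0.509). The response to SS was smaller in CS than in Creso, at -1.19 (SE 0.38), with an adjusted p = 0.0853, so the difference in response did not pass.

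The genotype difference of this 6-FEH probe set was larger than that of the member, with every bread wheat array below the Creso arrays of the same treatment. Averaged over treatments it was -2.22 (SE 0.15, adjusted p = 6.43e-12) in CS and -1.68 (SE 0.15, adjusted p = 8.26e-10) in CS_5AL-10. One further 6-FEH probe set, TaAffx.93410.1.S1_at, lay near the array median and scattered, with SS arrays at 7.44, 6.34 and 7.61 and CTRL arrays at 4.77, 6.20 and 5.48 in CS_5AL-10. There it rose by 1.65 (SE 0.54, adjusted p = 0.0482), a call lost without 16 of the 27 arrays taken out in turn, and by 2.08 (SE 0.54, adjusted p = 0.0275) at MS. Its changes in Creso and CS at SS were 0.43 (SE 0.54, adjusted p = 0.666) and 0.54 (SE 0.54, adjusted p = 0.567). The fructan 1-exohydrolase 1-FEH (Ta.199.1.S1_at) was high on all arrays, with SS minus CTRL of 0.68 (SE 0.14, adjusted p = 0.00143) for Creso, 0.25 (SE 0.14, adjusted p = 0.253) for CS and 0.56 (SE 0.14, adjusted p = 0.00712) for CS_5AL-10, none of them called.

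**Figure D3:**
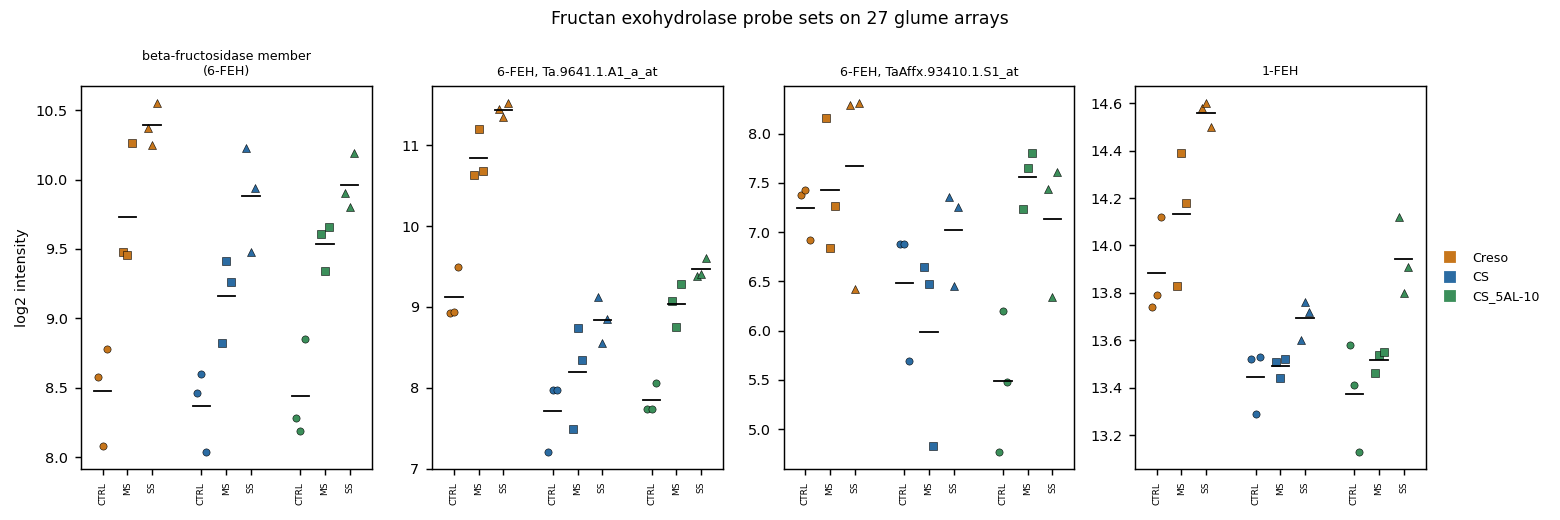
Log2 intensity of 4 fructan exohydrolase probe sets on all 27 arrays, with treatments within each genotype on the x axis and the mean of 3 arrays as a line; only the leftmost is a member. In the first 2 panels the SS arrays lie above the CTRL arrays in all genotypes, and in the second Creso lies above both bread wheats at each treatment.

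In sucrose synthesis the 2 kinds of enzyme differed between genotypes in opposite directions. All 4 member probe sets of cytosolic fructose-1,6-bisphosphatase, a control point between triose phosphates and sucrose, were lower in bread wheat. The one with the largest difference was Ta.1166.1.A1_x_at. For Creso the values were 9.71, 9.46 and 10.08 (CTRL), 10.13, 10.69 and 10.32 (MS) and 10.59, 10.82 and 11.11 (SS). For CS the values were 8.64, 8.63 and 8.44 (CTRL), 8.93, 9.27 and 9.15 (MS) and 9.49, 9.38 and 9.34 (SS). For CS_5AL-10 the values were 7.87, 7.98 and 8.21 (CTRL), 8.96, 8.73 and 8.12 (MS) and 9.29, 9.19 and 9.64 (SS). Within each treatment no bread wheat array reached the Creso arrays. CS was lower, at -1.29 (SE 0.12, adjusted p = 2.08e-09), 2.45-fold, and CS_5AL-10, at -1.66 (SE 0.12, adjusted p = 1.81e-11), 3.16-fold. The described probe set of the gene, Ta.1166.2.S1_a_at, gave -0.42 (SE 0.08, adjusted p = 0.000125) and -0.52 (SE 0.08, adjusted p = 6.84e-06), under 2-fold, and the remaining pair lay between -0.88 and -1.38. Of that pair Ta.1166.2.S1_at was called in CS_5AL-10 but fell short of 2-fold without centring (-0.88) and with quantile normalization (-0.76). A probe set of the same cluster that is not a member, Ta.1166.3.S1_at, lay on the other side, at 0.41 (SE 0.12) and 0.18 (SE 0.12). Green tissue genes were also lower in the bread wheats, as given above, and their part in the difference was not tested.

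As a description, fructose-1,6-bisphosphatase was higher at SS than in CTRL in each genotype for all 4 member probe sets, while Ta.1166.3.S1_at showed 0.53, -0.02 and 0.03 in Creso, CS and CS_5AL-10. For Ta.1166.2.S1_a_at SS minus CTRL came to 0.48 (Creso), 1.05 (CS) and 1.49 (CS_5AL-10), each with an SE of 0.15, with MS minus CTRL at 0.31, 0.99 and 0.80. An FBP probe set that is not a member, Ta.439.1.S1_at, annotated also as pre-FBPase, did not pass at SS in any genotype by both criteria. Its changes were -0.05 (SE 0.15, adjusted p = 0.876) for Creso, 0.22 (SE 0.15, adjusted p = 0.37) for CS and 0.72 (SE 0.15, adjusted p = 0.00235) for CS_5AL-10.

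Sucrose-phosphate synthase, which commits UDP-glucose to sucrose, differed on the other side, with higher levels in bread wheat. Its 2 genes, here called A and B, were told apart by their Arabidopsis matches. Sucrose-phosphate synthase A (Ta.3471.1.S1_at) had means of 9.44 ± 0.41 in CTRL, 9.73 ± 0.28 in MS and 10.56 ± 0.03 in SS (SD, n = 3) for Creso, 10.54 ± 0.11 in CTRL, 10.91 ± 0.05 in MS and 11.24 ± 0.42 in SS for CS and 10.55 ± 0.08 in CTRL, 10.81 ± 0.17 in MS and 11.28 ± 0.02 in SS for CS_5AL-10. Creso reached at SS the level at which both bread wheats stood in CTRL. The averaged differences of 0.99 (SE 0.11, adjusted p = 2.5e-08) for CS and 0.97 (SE 0.11, adjusted p = 2.84e-08) for CS_5AL-10 fell just short of 2-fold, and the CTRL differences were 1.10 (SE 0.19) and 1.11 (SE 0.19), or 0.89 each without Creso CTRL replicate 2. Without centring, where the overall shift was near 0, the averaged differences were 1.23 and 1.24.

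Sucrose-phosphate synthase B (Ta.3972.1.S1_at) set the deletion line apart from its parent. Creso read 7.82, 8.55 and 7.82 in CTRL, 7.97, 8.34 and 8.19 at MS and 8.81, 9.17 and 8.81 at SS. CS read 8.97, 8.22 and 8.37 in CTRL, 8.81, 8.59 and 8.74 at MS and 9.44, 8.77 and 9.09 at SS. CS_5AL-10 read 9.43, 9.64 and 9.42 in CTRL, 9.86, 10.78 and 9.71 at MS and 10.07, 10.37 and 9.88 at SS. Every CS_5AL-10 array lay above the CS arrays of the same treatment. Averaged over treatments CS_5AL-10 was 2.19-fold higher than CS, 1.13 (SE 0.15, adjusted p = 7.73e-06), and 2.87-fold higher than Creso, 1.52 (SE 0.15, adjusted p = 3.41e-09), while CS against Creso was 0.39 (SE 0.15, adjusted p = 0.0257). The call against CS held with each of the 27 arrays taken out in turn (1.02 to 1.21), and with the MS arrays left out the difference was 0.99, just below the limit. Another probe set of the same transcript cluster, Ta.3972.2.S1_at, which is not a member, showed 1.17 between CS_5AL-10 and CS. Under drought SS minus CTRL came to 0.87 (Creso), 0.58 (CS) and 0.61 (CS_5AL-10), each with an SE of 0.26, and its Creso value of 0.87 is the smallest of the members' largest drought differences.

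Sucrose synthase, which feeds UDP-glucose to cell wall and starch synthesis, had a like drought pattern in all genotypes. The described probe set was Ta.11152.2.A1_a_at. In Creso the CTRL arrays read 10.30, 9.84 and 9.97, the MS arrays 10.63, 11.06 and 10.87 and the SS arrays 12.09, 12.17 and 11.98. In CS the CTRL arrays read 9.48, 9.34 and 8.98, the MS arrays 10.02, 10.56 and 10.23 and the SS arrays 11.61, 10.13 and 10.65. In CS_5AL-10 the CTRL arrays read 9.74, 9.81 and 9.32, the MS arrays 10.65, 10.70 and 11.18 and the SS arrays 11.0, 11.35 and 10.85. In all genotypes both stress levels lay wholly above CTRL, and in Creso the SS arrays lay wholly above MS as well. SS minus CTRL came to 2.04 (Creso), 1.53 (CS) and 1.44 (CS_5AL-10), each with an SE of 0.26, and for the second probe set, Ta.11152.3.S1_at, the differences were 1.96, 1.74 and 1.55. Bread wheat levels were lower, at -0.88 (SE 0.15, adjusted p = 1.83e-05) in CS and -0.48 (SE 0.15, adjusted p = 0.00737) in CS_5AL-10, under 2-fold.

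Starch synthesis held the members with the widest scatter between replicates. The large subunit of ADP-glucose pyrophosphorylase (Ta.2797.3.S1_at), the enzyme that commits glucose 1-phosphate to starch, had drought differences of opposite sign in durum and bread wheat. The Creso arrays gave 5.90, 5.30 and 4.88 under CTRL, 10.44, 6.77 and 8.70 under MS and 9.62, 9.48 and 9.13 under SS. The CS arrays gave 10.41, 10.0 and 9.98 under CTRL, 9.17, 10.34 and 6.57 under MS and 9.47, 5.31 and 8.55 under SS. The CS_5AL-10 arrays gave 8.49, 8.46 and 9.90 under CTRL, 8.91, 6.33 and 6.92 under MS and 6.28, 8.98 and 5.74 under SS. In Creso all stressed arrays exceeded all CTRL arrays, whereas in CS the SS arrays lay wholly below CTRL. SS minus CTRL came to 4.05 (Creso), -2.35 (CS) and -1.95 (CS_5AL-10), each with an SE of 1.01. In CTRL plants CS lay above Creso by 4.77 (SE 1.01) and CS_5AL-10 by 3.59 (SE 1.01). All 3 Creso CTRL arrays lay below the array median, near the floor that the offset sets, so no fold is given and the size of these differences depends on the offset. Averaged over treatments the differences were 1.06 (SE 0.59, adjusted p = 0.111) and -0.02 (SE 0.59, adjusted p = 0.973). The second probe set of the gene, Ta.2797.3.S1_x_at, gave 3.60 (SE 0.82) and 2.23 (SE 0.82) in CTRL plants.

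Among the bread wheat arrays this gene tended to be high where grain transcripts were high, with the highest value of both on the same array in 3 of the 4 stressed groups. The CS SS arrays had grain means of 9.65, 5.94 and 10.63 and CS MS arrays 10.99, 11.23 and 6.01, in the replicate order of the values above. In CS_5AL-10 they were 10.85, 8.49 and 7.35 at MS and 6.91, 11.59 and 7.61 at SS. In Creso SS the large subunit read 9.13 to 9.62 on arrays with grain means of 5.54 to 6.56. At that level 1 to 7 of the 17 storage protein probe sets lay above the array median. Among these Ta.27777.1.S1_at was high on every array. Creso MS replicate 1, at 10.44, was the Creso array with a high grain mean. Most of the 17 probe sets are annotated to D chromosomes, which Creso lacks, so its grain means are not directly comparable with those of bread wheat. Low Creso values were not confined to the D-annotated probe sets, as given above. The granule-bound starch synthase GBSS (Ta.2795.1.S1_a_at), a non-member that makes amylose in the grain, read 5.99, 6.51 and 4.77 on the Creso SS arrays and 10.13, 10.26 and 10.35 on the CS CTRL arrays. GBSS passed the filter through bread wheat groups alone, so its difference of 4.26 (SE 1.25) between CS and Creso in CTRL plants is given no test. The small subunit AGP-S (Ta.242.1.S1_at) was higher in CS than in Creso by 1.29 (SE 0.29, adjusted p = 0.000885) in CTRL plants. At SS against CTRL the small subunit gave 0.20 (SE 0.29, adjusted p = 0.721) for Creso, -0.72 (SE 0.29, adjusted p = 0.119) for CS and -0.34 (SE 0.29, adjusted p = 0.526) for CS_5AL-10. The part of grain transcripts in the CTRL differences was not tested.

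**Figure D4:**
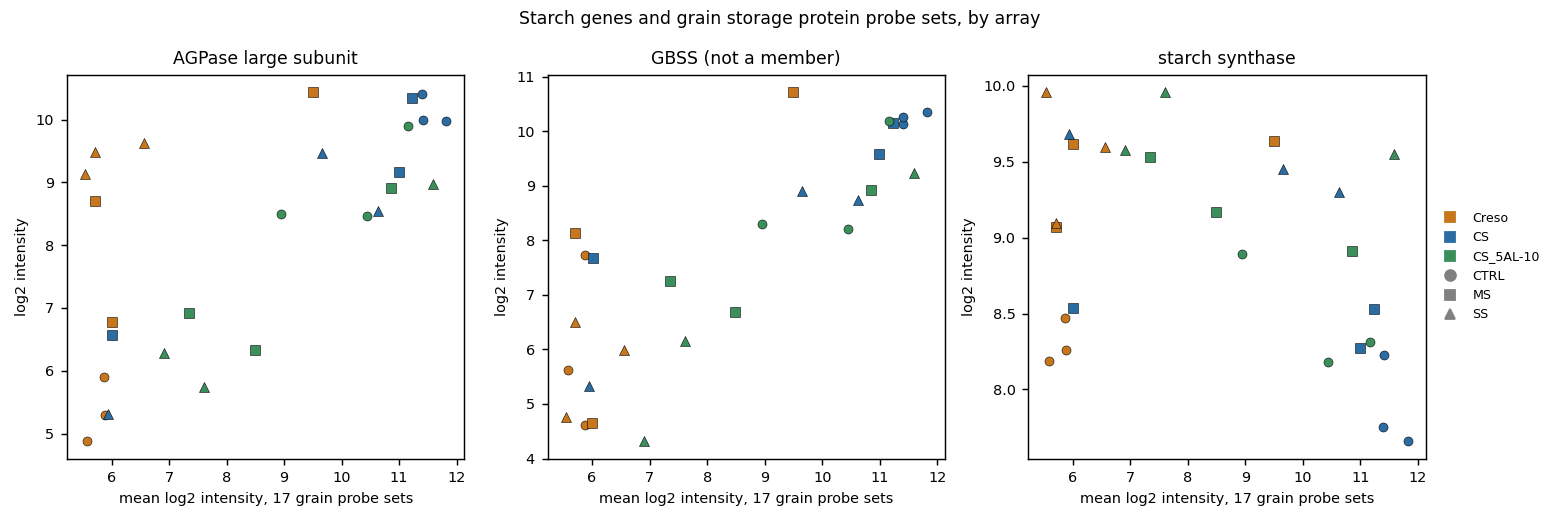
Log2 intensity of 3 starch genes against the mean of 17 grain storage protein probe sets, 1 point per array, with genotype as colour and treatment as symbol. The 3 Creso SS arrays of the ADP-glucose pyrophosphorylase large subunit stand at 9.13 to 9.62 on the left, apart from the bread wheat arrays. Most of the 17 probe sets are annotated to D chromosomes, which Creso lacks, but low Creso values were not confined to those.

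Starch synthase (Ta.25528.1.S1_at), which extends the glucan chains, had the same drought direction in all genotypes. For Creso the values were 8.47, 8.26 and 8.19 (CTRL), 9.64, 9.62 and 9.07 (MS) and 9.60, 9.10 and 9.96 (SS). For CS the values were 7.75, 8.23 and 7.66 (CTRL), 8.27, 8.53 and 8.54 (MS) and 9.45, 9.68 and 9.30 (SS). For CS_5AL-10 the values were 8.89, 8.18 and 8.31 (CTRL), 8.91, 9.17 and 9.53 (MS) and 9.58, 9.55 and 9.96 (SS). The SS arrays lay wholly above the CTRL arrays in all genotypes, and so did the MS arrays, by a narrow margin in bread wheat. SS minus CTRL came to 1.25 (Creso), 1.60 (CS) and 1.24 (CS_5AL-10), each with an SE of 0.24, and the second probe set, Ta.25528.2.S1_at, gave 1.46, 1.49 and 1.46. Averaged over treatments CS was below Creso, at -0.50 (SE 0.14, adjusted p = 0.00291), and CS_5AL-10 was above CS by 0.52 (SE 0.14, adjusted p = 0.0128), both under 2-fold. The second probe set gave -0.69 (SE 0.11, adjusted p = 8.76e-06) and 0.69 (SE 0.11, adjusted p = 9.2e-05).

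Both starch breakdown members were higher at SS than in CTRL in all genotypes. Alpha-amylase (Ta.10281.1.S1_a_at), which cuts starch internally, had means of 9.37 ± 0.44 in CTRL, 9.44 ± 0.49 in MS and 10.03 ± 0.07 in SS (SD, n = 3) for Creso, 9.50 ± 0.15 in CTRL, 10.30 ± 0.11 in MS and 10.57 ± 0.07 in SS for CS and 9.66 ± 0.10 in CTRL, 10.61 ± 0.37 in MS and 10.99 ± 0.08 in SS for CS_5AL-10. The bread wheats were already clear of CTRL at MS, and Creso was not. Averaged over treatments CS and CS_5AL-10 were above Creso by 0.51 (SE 0.12, adjusted p = 0.000903) and 0.81 (SE 0.12, adjusted p = 3.87e-06), under 2-fold. A probe set of the same cluster outside the part of the list used here, Ta.10281.1.S1_at, showed -0.36 for Creso, 1.09 for CS and 0.84 for CS_5AL-10 at SS. Its averaged differences from Creso were larger than those of the member, at 1.39 (SE 0.15) for CS and 1.45 (SE 0.15) for CS_5AL-10. The isoamylase-like debranching enzyme (Ta.19443.1.S1_at), which removes branches from glucans, had means of 9.10 ± 0.14 in CTRL, 9.96 ± 0.34 in MS and 10.40 ± 0.09 in SS for Creso, 8.43 ± 0.30 in CTRL, 9.11 ± 0.21 in MS and 9.24 ± 0.41 in SS for CS and 8.58 ± 0.28 in CTRL, 9.34 ± 0.20 in MS and 9.55 ± 0.12 in SS for CS_5AL-10. It was lower in the bread wheats, at -0.90 (SE 0.12, adjusted p = 8.22e-07) in CS and -0.67 (SE 0.12, adjusted p = 4.29e-05) in CS_5AL-10, the opposite side to alpha-amylase. The non-member amy1 (Ta.3.1.S1_at), also annotated as BMY1, scattered from 6.10 to 11.99 over the arrays and did not pass at SS in any genotype.

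The trehalose pathway, whose intermediate trehalose 6-phosphate acts as a signal of sucrose supply in plants, was represented by 2 genes. Trehalose-6-phosphate phosphatase (Ta.10237.1.S1_at), which removes that intermediate, was highest at MS in Creso and CS. Creso read 7.47, 6.66 and 7.44 in CTRL, 9.13, 9.39 and 7.75 at MS and 7.38, 7.88 and 7.90 at SS. CS read 8.21, 7.49 and 7.72 in CTRL, 9.52, 10.22 and 8.71 at MS and 9.66, 7.95 and 8.38 at SS. CS_5AL-10 read 8.12, 8.69 and 8.52 in CTRL, 9.44, 10.04 and 8.49 at MS and 9.96, 9.45 and 9.78 at SS. At MS all arrays of Creso and CS lay above their CTRL arrays, and in CS_5AL-10 the SS arrays did. MS minus CTRL was 1.57, 1.68 and 0.88 (SE 0.45 each) in Creso, CS and CS_5AL-10, and SS minus CTRL was 0.53, 0.86 and 1.29. CS_5AL-10 was 2.42-fold above Creso over treatments, 1.28 (SE 0.26, adjusted p = 0.00015), and CS was above it by 0.76 (SE 0.26, adjusted p = 0.0134).

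The probe set of the trehalose-phosphate synthase family (Ta.20649.1.S1_a_at) lay on the other side, lower in bread wheat CTRL plants. Its means were 10.93 ± 0.51 in CTRL, 10.35 ± 0.54 in MS and 10.60 ± 0.41 in SS (SD, n = 3) for Creso, 9.44 ± 0.45 in CTRL, 10.47 ± 0.39 in MS and 10.54 ± 0.59 in SS for CS and 9.65 ± 0.29 in CTRL, 9.92 ± 0.56 in MS and 9.79 ± 1.41 in SS for CS_5AL-10, where SS replicate 3 read 8.16 beside 10.54 and 10.67. In CTRL plants it was lower in CS, at -1.49 (SE 0.48) and at -1.29 (SE 0.48) in CS_5AL-10. Without Creso CTRL replicate 1 these were -1.31 and -1.10. Averaged over treatments the differences of -0.48 (SE 0.27, adjusted p = 0.128) and -0.84 (SE 0.27, adjusted p = 0.00945) were not called.

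The glycolysis members were 3 probe sets for the alpha subunit of pyrophosphate-dependent phosphofructokinase (PFP), which interconverts fructose 6-phosphate and fructose 1,6-bisphosphate. The described one, Ta.10354.1.S1_at, had means of 10.16 ± 0.18 in CTRL, 9.97 ± 0.62 in MS and 8.69 ± 0.24 in SS (SD, n = 3) for Creso, 9.18 ± 0.37 in CTRL, 9.0 ± 0.37 in MS and 8.69 ± 0.27 in SS for CS and 9.57 ± 0.45 in CTRL, 8.50 ± 0.39 in MS and 8.90 ± 0.21 in SS for CS_5AL-10. On this probe set the genotypes had come to nearly the same level at SS. SS minus CTRL came to -1.47 (Creso), -0.50 (CS) and -0.67 (CS_5AL-10), each with an SE of 0.29, and all 3 member probe sets were lower at SS than in CTRL in all genotypes (-1.47 to -0.07). Their genotype differences did not share a sign. Ta.10354.1.S1_at was lower in CS, at -0.65 (SE 0.17, adjusted p = 0.00143), whereas Ta.10354.2.S1_x_at was higher by 0.72 (SE 0.14, adjusted p = 0.000128), and in CS_5AL-10 the pair gave -0.62 (SE 0.17, adjusted p = 0.00208) and 0.82 (SE 0.14, adjusted p = 2.14e-05). A non-member of the cluster, Ta.10354.3.S1_x_at, was higher in both by 2.10 and 1.96, and at SS it showed 0.26 in CS.

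2 of the 18 genes, with 3 probe sets, matched the search words but were placed in none of the pathways above. The tocopherol cyclase VTE1, known in maize as SXD1 from a mutant with blocked sucrose export, had means of 7.48 ± 0.32 in CTRL, 8.21 ± 0.58 in MS and 9.29 ± 0.34 in SS for Creso, 7.74 ± 0.68 in CTRL, 8.22 ± 0.57 in MS and 8.56 ± 0.65 in SS for CS and 7.94 ± 0.21 in CTRL, 8.57 ± 0.52 in MS and 9.06 ± 0.31 in SS for CS_5AL-10 on Ta.21337.3.S1_a_at (SD, n = 3). Genotypes differed by -0.15 (SE 0.22, adjusted p = 0.543) and 0.19 (SE 0.22, adjusted p = 0.438) against Creso. The epimerase/dehydratase (Ta.25823.1.A1_at) lay at or below the array median on most arrays, with a CTRL range of 6.67 to 7.94 and an SS range of 5.12 to 6.46 in Creso. Its averaged difference between CS and Creso was -1.02 (SE 0.39).

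At SS all member probe sets of sucrose synthesis, sucrose synthase, starch synthase and starch breakdown were higher than in CTRL in all genotypes. Those of the PFP alpha subunit were all lower. Some non-members of these clusters went the other way, as given above. The drought differences of the members split for the invertases, the ADP-glucose pyrophosphorylase large subunit and trehalose-phosphate synthase. By the same criterion 14 members were higher and 8 lower at SS in Creso (71.0%, beside 7.32% of all probe sets), 7 and 1 in CS (25.8% beside 5.87%), and 10 and 0 in CS_5AL-10 (32.3% beside 5.69%). At MS there were 5, 3 and 4 (16.1%, 9.7% and 12.9%, beside 1.28%, 2.32% and 2.28%). Nothing is read from these counts, as the study chose the members on such contrasts. The median member stood at 0.87 for Creso, 0.58 for CS and 0.68 for CS_5AL-10 at SS, and the median probe set at 0.13, 0.06 and 0.06.

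**Figure D5:**
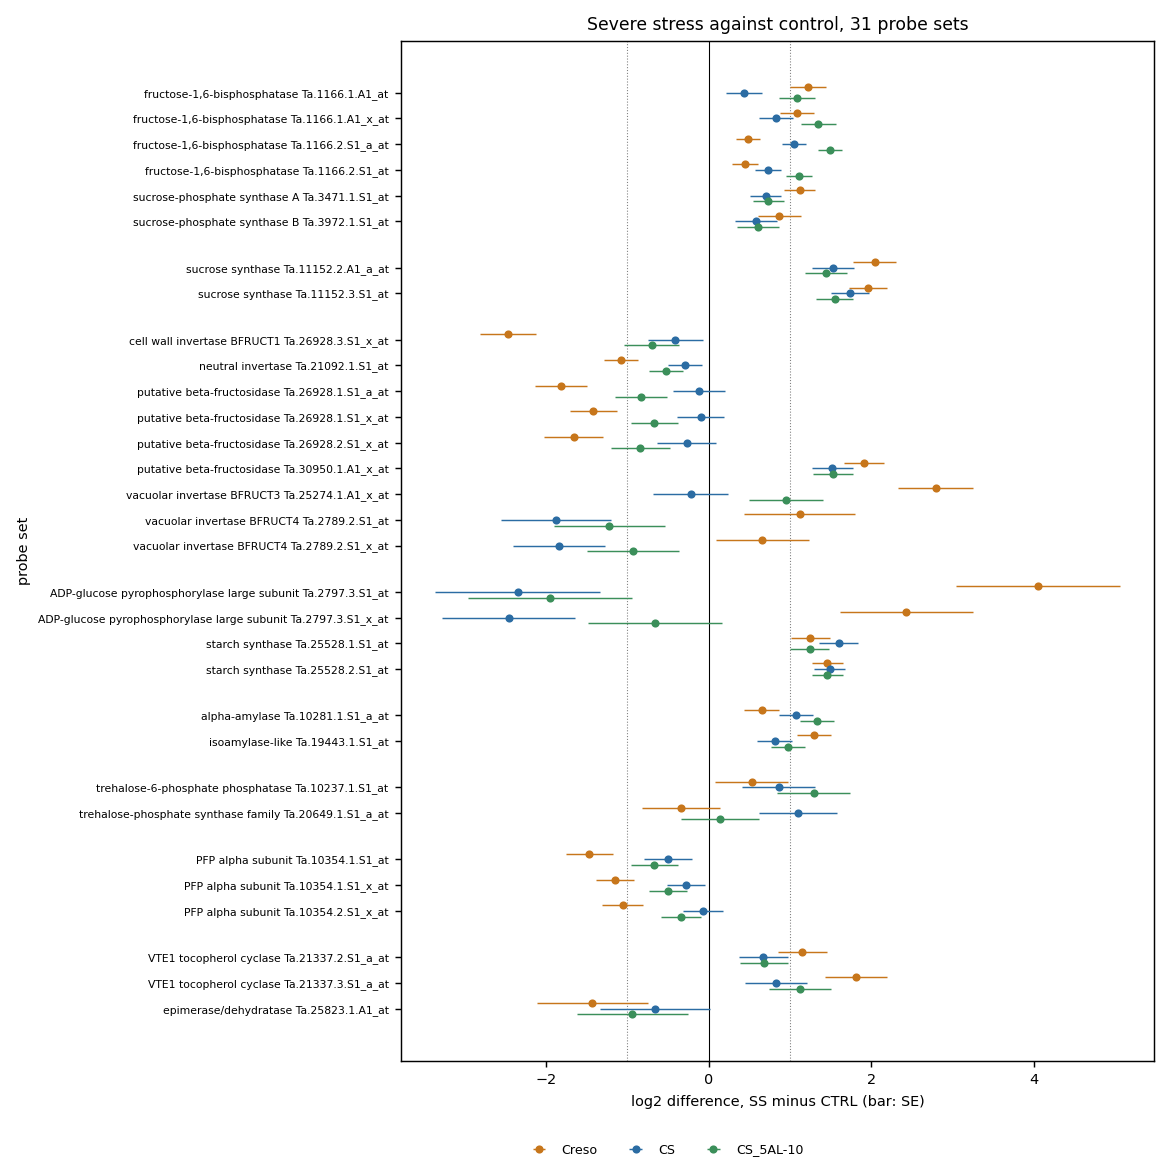
Log2 difference between SS and CTRL for each of the 31 probe sets in Creso, CS and CS_5AL-10, grouped by pathway, with the SE of the fit as bars and dotted lines at 2-fold. Sucrose synthase and starch synthase lie to the right in all genotypes, and cluster Ta.26928 lies farther to the left in Creso than in the bread wheats.

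At the edge of the study's choice, the members with the smallest values of their largest drought difference were sucrose-phosphate synthase B at 0.87 and PFP alpha subunit Ta.10354.2.S1_x_at at -1.06, both in Creso at SS. The clusters of the members hold 15 further probe sets outside the part of the list used here, 13 of them tested, whose largest drought difference ran from 0.44 to 2.41 in size. The lowest was Ta.20649.3.S1_x_at of the trehalose-phosphate synthase cluster and the highest Ta.2789.1.S1_a_at of the BFRUCT4 cluster, in Creso at MS as for BFRUCT4 itself. For the ADP-glucose pyrophosphorylase cluster the 3 outside probe sets had the same opposite signs, with SS minus CTRL of 0.78 to 1.88 in Creso and -2.15 to -1.52 in CS (SE 0.66 to 0.92 in CS). The Creso differences were smaller than the 4.05 of the member Ta.2797.3.S1_at. For each of them the CTRL and SS arrays overlapped in Creso and did not in CS. Probe sets of the same cluster can bind the same transcripts and are not separate evidence.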

How the data were processed

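Glume RNA of 3 biological replicates in each of 9 genotype and treatment groups was measured on 27 Affymetrix Wheat Genome Arrays. The deposited values are linear signal intensities that the authors made with the MAS5 algorithm, 1 per probe set, and its version is not given in the sources used here. Array medians were 59.1 to 99.1. The methods describe RMA values and a Welch t-test on them, so the values used here are not those of the study's own tests. MAS5 is noisy at low intensity, and 3 arrays per group limit the precision.

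The 111 manufacturer controls were dropped, 16 was added before log2, and each array was centred on a common median of 6.57. Testing was limited to the 34089 of 61179 probe sets that exceeded the array median in all replicates of 1 group or more. Group means over all 27 arrays were fitted with limma 3.58.1 in R 4.3.3 (trended empirical Bayes, prior df of 5.52), with Benjamini-Hochberg adjustment over all 34089, and every adjusted p given is from this fit. The offset of 16 lowers the fold differences of low intensities. The script for this fit was tested on simulated data. Replicates of a group correlated at r = 0.908 to 0.975.

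The members and gene lists were chosen with earlier results of these data known. Each gene is described by its probe set with the highest mean intensity, another of its probe sets is named where its direction opposes or where it has the largest genotype difference of its pathway, and the called sugar genes outside the members are named by the size of their change. Further genes, probe sets of the same clusters among them, were named after their values were seen. Of the members 10 are of the _x_at kind, which can bind related transcripts. Which homoeologues each member probe set binds, and whether it binds them equally, was not determined. The paper allows that sequence differences between the species might slightly inflate the expression differences. The genotype field of the CS_5AL-10 samples reads CS, and they were grouped by their titles. Other scalings, offsets, filters, the Welch t-test of the methods, a replicate block and leaving out each array were tried as alternatives.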

Additional observations from a re-analysis of the deposited data

Results flagged for a closer look

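The response of FBP (Ta.439.1.S1_at) to SS was larger in CS_5AL-10 than in Creso by 0.77 on the log2 scale (adjusted p = 0.0442 in limma), short of 2-fold, and was picked out by the test of that difference. The ADP-glucose pyrophosphorylase large subunit was picked out because its groups went opposite ways. SS minus CTRL was 4.05 in Creso and -2.35 in CS for Ta.2797.3.S1_at, and 2.43 in Creso and -2.46 in CS for Ta.2797.3.S1_x_at, with every SS array above every CTRL array in Creso and below in CS. That difference between genotypes was not tested, since the study chose the gene on these contrasts.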

How the results depend on the processing

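The alternatives were run on the genotype differences of the members, averaged and in CTRL plants, and on the SS differences of the annotated sugar genes. In none of those with an adjusted p under 0.05 in the main limma fit was the direction reversed. The direction of the remaining differences was not checked. The drought differences of the members, the MS differences and the other probe sets of their clusters were not rerun. Counts of calls that moved by over 1.5 times were as follows. Without the 2-fold limit the members called were 23 (CS against Creso, averaged), 18 (CS against Creso, CTRL), 22 (CS_5AL-10 against Creso, averaged), 10 (CS_5AL-10 against CS, averaged) and 2 (the same, CTRL), and the annotated sugar genes at SS were 2 in Creso and 4 in CS_5AL-10. With the Welch t-test of the methods the members called were 8 for CS_5AL-10 against Creso in CTRL, and 1 (averaged) and 0 (CTRL) for CS_5AL-10 against CS, while the annotated sugar genes called at SS were 0 in each genotype, where that test called 3, 0 and 1 of all 34089 probe sets in Creso, CS and CS_5AL-10. Of the 7 annotated genes 1, 1 and 2 passed it unadjusted, and 2 members did in CS_5AL-10 against CS in CTRL, where 18 of all probe sets passed after adjustment. The 3 averaged calls of CS_5AL-10 against CS came to 1 with no filter or only the groups compared, and to 0 with CTRL and SS arrays only, an alternative chosen after seeing the data. The single CTRL call came to 0 with no filter or an offset of 1, and to 2 with the 75th percentile filter, only the groups compared, or quantile normalization. The annotated calls came to 0 in CS with an offset of 64, and in CS_5AL-10 to 1 with the 75th percentile filter, no filter, no centring, quantile normalization, an offset of 1 or 64, or only the groups compared. The replicate numbers did not pair the samples (median r of -0.01 over 108 pairs), and with the replicate block there were 2 calls for CS_5AL-10 against CS in CTRL and 1 annotated call in CS_5AL-10. Leaving out each array gave 7 to 11 and 9 to 11 members (CS against Creso, averaged and CTRL), 12 to 13 and 11 to 15 (CS_5AL-10 against Creso), 1 to 3 and 0 to 2 (CS_5AL-10 against CS), and 1 to 1, 0 to 2 and 1 to 2 annotated calls in Creso, CS and CS_5AL-10. The 3 averaged calls of CS_5AL-10 against CS came to 1 for 13 arrays, the single CTRL call of Ta.26928.1.S1_a_at ended for 16, and the second annotated call in CS_5AL-10 for 16. The cause of these moves was not tested.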
